A study of Mus musculus with 24 samples.

Results

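Kiss1 encodes kisspeptin, a secreted peptide, and Kiss1r encodes its receptor. The pair is 2 of the 19751 genes that could be named on the arrays, and every probe of both was followed, 2 for Kiss1 (A_55_P2069765, called the first probe, and A_55_P2069768, the second) and 1 for Kiss1r (A_55_P2023617), of 39429 distinct probes. Kiss1 was chosen because its rise was among the highest in the study's list of F1 genes, which was made from these same arrays, and the listed probe is the first one. Its F1 values, and those of Kiss1r, are therefore given as a description without a test, and only the F2 comparison and the relations that did not enter the choice were tested.

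Hippocampal RNA was measured in 4 groups with 6 arrays each, every array holding a pool of 4 mice. CD F1 and MD F1 were offspring of C57BL/6J fathers that received the control diet (CD) or the methyl donor-rich diet (MD, 3MS ZM) for 6 weeks before they were mated to 129S6/SvEv dams. The MD held added L-methionine (7.5 g), choline (15 g), betaine (15 g), folic acid (15 mg), vitamin B12 (1.5 mg) and zinc (150 mg) per kg of chow. CD F2 and MD F2 descended from F1 males of CD or MD fathers and F1 females of CD fathers, so that the diet was that of a grandfather. All offspring ate control chow themselves. The labels call the F1 mice congenic and the F2 mice mixed hybrids of both strains, and they give an age of 4 weeks where the methods speak of adult mice. The labels of the F2 samples also carry a code of unstated meaning, lh on the first 3 replicates of each group and rh on the last 3.

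Kisspeptin is cut from a longer precursor and is counted among the RF-amide peptides, a family named after an amidated end of arginine and phenylalanine. It is best known from the hypothalamus, where kisspeptin neurons drive the neurons that release gonadotropin-releasing hormone and so control puberty and fertility. Its receptor couples to Gq proteins, which act through phospholipase C, calcium and protein kinase C. In the hippocampus the receptor is known from dentate granule cells. The comparison asks whether RNA of the ligand or of the receptor differed in the hippocampus of descendants of MD males.

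The 250 bases before the annotated start of each gene are shown because the diet supplies methyl groups and the bases that can carry them, the cytosines of CG pairs, are in capitals. The sequences are from RefSeq (GRCm38.p6, plus strand for both genes).
Kiss1, chr1:133326962-133327211: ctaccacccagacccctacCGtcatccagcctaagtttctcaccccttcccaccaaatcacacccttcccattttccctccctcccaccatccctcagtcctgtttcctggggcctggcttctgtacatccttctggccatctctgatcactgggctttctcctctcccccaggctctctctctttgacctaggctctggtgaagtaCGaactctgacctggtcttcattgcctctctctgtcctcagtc
Kiss1r, chr10:79916721-79916970: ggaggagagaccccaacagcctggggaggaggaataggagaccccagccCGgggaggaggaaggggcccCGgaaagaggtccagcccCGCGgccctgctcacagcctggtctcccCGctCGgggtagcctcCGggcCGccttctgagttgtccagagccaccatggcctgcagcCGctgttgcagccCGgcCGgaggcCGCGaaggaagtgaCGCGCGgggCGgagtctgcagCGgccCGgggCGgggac
The Kiss1 stretch held 2 CG pairs, and 29.0% of 32851 promoter stretches of the same length held 2 or fewer. The Kiss1r stretch held 20, a number reached by 17.9% of them, where the median was 6. The letters GGGCGG, searched on both strands, were found 2 times before Kiss1r and not before Kiss1, and 32.7% of all stretches had them. The arrays measure RNA, so these stretches are given for context and no methylation value is attached to them.

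The labelled tissue was checked against its markers. All 9 markers of the hippocampal fields were well above background on all arrays of every group. They include Prox1 of the dentate gyrus, Wfs1 of CA1 and Neurod6 of pyramidal neurons. In both F1 groups, all 12 choroid plexus and all 7 striatum markers also cleared the background on all arrays. This flag alone therefore does not identify the tissue. Of 11 genes that mark hypothalamic neurons, 10 were well above background on all arrays of both F1 groups. In F2, 5 were so on all CD F2 arrays and 3 on all MD F2 arrays. Agrp, Avp, Pmch and Trh each cleared the background on 5 of the 6 arrays of either F2 group. Oxt and Ghrh cleared it on 6 CD F2 and 5 MD F2 arrays. Otp did so on 1 CD F2 array and no MD F2 array, and Sim1 was not above it on any array. In bulk tissue, fewer cells of a type and less RNA per cell cannot be told apart. Between 27383 and 37013 spots per array were well above background. The smallest numbers were those of replicate 6 of CD F2 (28000) and replicate 3 of MD F2 (27383), against 32809 to 34661 on the other 10 F2 arrays. Both Kiss1 probes failed to clear the background on these 2 arrays, which stood apart, and on no other.

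Kiss1 signal was low and near the limit of detection. Each of its probes was well above background on 22 of the 24 arrays, that is, on all F1 arrays and on 10 of 12 F2 arrays. The raw signal of the first probe was 2.27 to 4.96 times that of the local background in F1 and 1.57 to 3.11 times in F2. For the second probe it was 1.98 to 4.59 times in F1 and 1.79 to 2.77 times in F2. Kiss1r was a clear signal by comparison with its own background, well above it on all 24 arrays, at 12.3 to 21.3 times in F1 and 7.72 to 17.5 times in F2. No spot of either gene was saturated.

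With all 24 arrays normalized together, the first Kiss1 probe was highest in MD F1, with a log2 signal of 6.36 ± 0.24 (SD, n = 6), followed by CD F1 with 5.75 ± 0.13, CD F2 with 5.15 ± 0.30 and MD F2 with 4.92 ± 0.55 (SD, n = 6 each). The groups did not overlap from MD F1 to CD F1 or from CD F1 to CD F2, and CD F2 and MD F2 did not differ beyond their spread. The second probe gave 6.40 ± 0.20 in MD F1, 6.09 ± 0.38 in CD F1, 5.04 ± 0.32 in MD F2 and 4.82 ± 0.44 in CD F2 (SD, n = 6 each). On this probe only the step from F1 to F2 was free of overlap, and neither diet pair differed beyond its spread. Kiss1r had 9.22 ± 0.23 in MD F1, 9.20 ± 0.13 in CD F1, 8.57 ± 0.14 in MD F2 and 8.55 ± 0.09 in CD F2 (SD, n = 6 each), again with a gap only between the generations. The CD F1 mean lay above the CD F2 mean by 0.60 and 1.28 for the Kiss1 probes and by 0.64 for Kiss1r. Of all probes, 39.1% had CD F1 and CD F2 arrays without overlap. The generations shared no slide and were scanned on 1 day each, so generation and slide cannot be told apart.

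**Figure D1:**
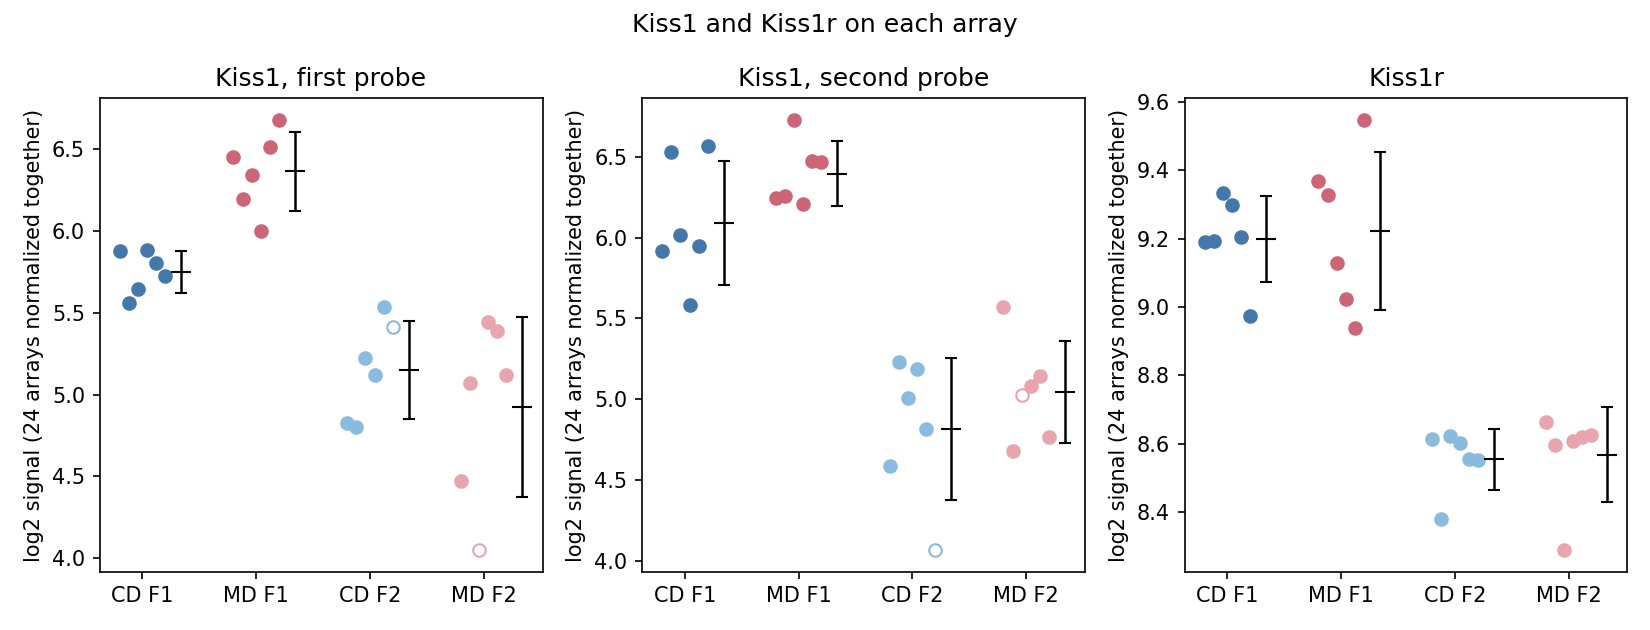
Log2 signal of both Kiss1 probes and of Kiss1r on each of the 24 arrays (y axis, all arrays normalized together) in the 4 groups (x axis). Points are arrays, open where the probe was not well above background, and black bars are the mean and SD of 6 arrays; the levels separate by generation for all 3 probes, and by diet only for the first Kiss1 probe in F1.

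In F1 the first Kiss1 probe had higher signal in MD F1 than in CD F1. Normalized within the generation, the CD F1 arrays ran from 5.77 to 6.09 with a median of 5.97, and the MD F1 arrays from 6.20 to 6.85 with a median of 6.58. All 6 MD F1 arrays lay above all CD F1 arrays. The group means, 5.96 ± 0.12 and 6.55 ± 0.23 (SD, n = 6 each), differed by 0.59 on the log2 scale (SE 0.11), which is 1.50-fold. Of all probes, 1.79% had groups without overlap in this comparison, 0.713% with MD F1 on top, and 0.033% passed an FDR of 0.1. Since this is the contrast that chose the gene, nothing is read from the separation. Within each of the 3 slides, which held 2 arrays of each diet, the difference was 0.33, 0.79 and 0.64.

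The second Kiss1 probe gave a smaller difference in the same direction. CD F1 arrays ran from 5.80 to 6.74 (median 6.18) and MD F1 arrays from 6.39 to 6.90 (median 6.54). The ranges overlapped, and 1 MD F1 array lay above all CD F1 arrays. The means were 6.29 ± 0.37 and 6.58 ± 0.19 (SD, n = 6 each), a difference of 0.29 (SE 0.16), with 0.45, 0.35 and 0.07 within the slides. Without normalization between arrays the differences were 0.20 for the first probe and -0.09 for the second, which thus turned negative. The median difference over all probes was then -0.28, and the values of the Kiss1 probes relative to it were 0.48 and 0.19. With the normexp background correction the differences were 0.32 and 0.13, and with scaling to the 75th percentile 0.46 and 0.17.

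Several other measures moved with the F1 groups. The mean log2 signal of the 11 hypothalamus markers was 6.33 to 6.45 in CD F1 and 6.44 to 6.87 in MD F1, a difference of 0.24. The highest were MD F1 replicate 6 (6.87), where Otp, a transcription factor of hypothalamic neurons, read 7.81 against 3.87 to 5.89 on the other 11 F1 arrays, and MD F1 replicate 2 (6.84), where Trh, the precursor of thyrotropin-releasing hormone, read 10.20 against 6.87 to 8.23. Otp and Trh had the largest shifts of the list, from means of 4.45 and 7.20 in CD F1 to 5.61 and 7.90 in MD F1. Pmch and Hcrt were lower in MD F1 (6.54 and 7.11 against 6.70 and 7.14). Sim1 was not above background, and the remaining markers were higher in MD F1. MD F1 replicate 6 also had the highest first-probe Kiss1 value (6.85), and MD F1 replicate 2 the second lowest of its group (6.38). The raw first-probe signal on MD F1 replicate 6 was 2.27 times the local background, the lowest ratio of the F1 arrays. This ratio was 2.59 to 4.04 in CD F1 and 2.27 to 4.96 in MD F1, so the groups overlapped in it. The balance of Y-linked genes against Xist, which shows the sexes in a pool, was -2.30 to -1.90 in CD F1 and -2.15 to 0.16 in MD F1, highest again in replicate 6, which also had the dimmest array of the generation (median intensity 166.6 against 201.1 to 317.8). Median intensity ran from 251.4 to 317.8 in CD F1 and from 166.6 to 262.4 in MD F1. The 9 markers of the hippocampal fields averaged 11.94 to 12.11 in CD F1 and 11.83 to 12.02 in MD F1, a difference of -0.10 (pooled SD 0.07), and the 7 striatum markers 8.997 to 9.230 and 8.931 to 9.151, a difference of -0.11 (pooled SD 0.09). Dentate granule cell, motile cilia, choroid plexus and thalamus lists differed by less than their pooled SD. Without MD F1 replicate 6 the Kiss1 differences were 0.53 and 0.28. With the sex balance as a covariate they were 0.58 and 0.27. The part of these marker lists and of array intensity in the Kiss1 values was not tested.

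The receptor gene had close values in the F1 groups. CD F1 arrays ran from 9.12 to 9.48 (median 9.34) and MD F1 arrays from 9.08 to 9.69 (median 9.37). The MD F1 arrays spread on both sides of the CD F1 arrays, 3 above and 3 below the CD F1 mean. The means were 9.34 ± 0.13 and 9.37 ± 0.23 (SD, n = 6 each), a difference of 0.02 (SE 0.11), and its sign changed between slides (-0.05, 0.14 and -0.02) and with scaling to the 75th percentile (-0.02).

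In F2, whose arrays had no part in the choice of the gene, no probe of either gene was called between MD F2 and CD F2, and the share of all probes past an FDR of 0.1 was 0%. The first Kiss1 probe ran from 4.55 to 5.32 in CD F2 (median 4.94) and from 3.76 to 5.22 in MD F2 (median 4.86), with overlapping groups. Its means were 4.92 ± 0.31 and 4.68 ± 0.58 (SD, n = 6 each), a difference of -0.24 (95% interval -0.79 to 0.31; limma FDR 0.940; two-sided exact permutation test over 924 splits, p = 0.396). The lowest value, 3.76, was that of MD F2 replicate 3, and without it and replicate 6 of CD F2 the difference was -0.0040 (FDR 0.998). Leaving out MD F2 replicate 3 alone gave -0.06, MD F2 replicate 1 alone gave -0.15, and the within-slide differences were -0.41, 0.23 and -0.55.

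The second Kiss1 probe pointed the other way in F2. It ran from 3.77 to 5.0 in CD F2 (median 4.67) and from 4.42 to 5.36 in MD F2 (median 4.82). The means were 4.56 ± 0.46 and 4.80 ± 0.33 (SD, n = 6 each), a difference of 0.24 (95% interval -0.24 to 0.72; limma FDR 0.936; exact permutation p = 0.348). Here the lowest array was CD F2 replicate 6, and without it the difference was 0.08. It was 0.13 without MD F2 replicate 1 and 0.08 without both arrays that stood apart. Both probes carry the identifier of the same Kiss1 transcript, and 0 lay inside the interval of each.

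The F2 groups were also close for Kiss1r, with 8.22 to 8.47 in CD F2 (median 8.43) and 8.13 to 8.52 in MD F2 (median 8.47). The difference of the means, 8.40 ± 0.09 and 8.42 ± 0.14 (SD, n = 6 each), was 0.01 with a 95% interval of -0.16 to 0.19 (limma FDR 0.997; exact permutation p = 0.766). Its sign was not stable, at -0.03 with scaling to the 75th percentile, -0.08 with no normalization, -0.02 without CD F2 replicate 2 and -0.0050 without MD F2 replicate 1. Put side by side on the 24-array scale, the diet difference was 0.61 in F1 and -0.23 in F2 for the first Kiss1 probe, 0.30 and 0.23 for the second, and 0.02 and 0.01 for Kiss1r. No test of the change between generations is given, since the F1 contrast chose the gene.

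**Figure D2:**
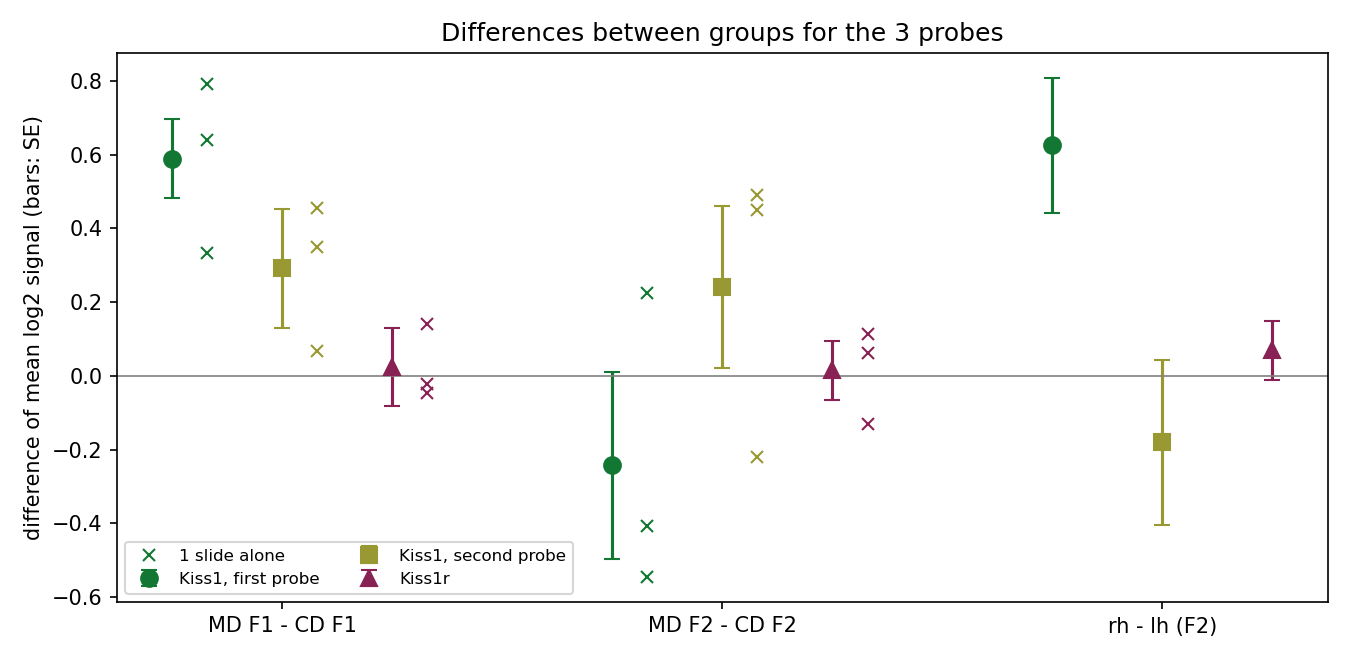
Difference of mean log2 signal (y axis) for both Kiss1 probes and Kiss1r in 3 comparisons (x axis), with SE bars, and crosses for the difference within 1 slide. The Kiss1 probes lie above 0 on all F1 slides, disagree in sign in F2, and the Kiss1r values lie within 0.14 of 0.

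All F1 arrays had both Xist and the Y-linked Ddx3y well above background, whereas each F2 array had 1 of them alone. On the 3 arrays with Xist, the first Kiss1 probe read 4.89 to 5.32 (median 4.99), against 3.76 to 5.22 (median 4.83) on the 9 arrays with Ddx3y. The second probe read 4.51 to 4.77 against 3.77 to 5.36, and Kiss1r 8.40 to 8.48 against 8.13 to 8.52. The ranges overlapped for all 3 probes. With the balance of Y-linked genes against Xist as a covariate, the F2 diet differences were -0.19, 0.23 and 0.02.

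The largest Kiss1 difference inside F2 was between the label codes rather than the diets. The first probe ran from 3.76 to 4.99 on the 6 lh arrays and from 4.88 to 5.32 on the 6 rh arrays. All rh arrays lay above the lh mean, and 4 of the 6 above every lh array. The difference, with diet in the model, was 0.63 (95% interval 0.22 to 1.03), with an unadjusted p of 0.00592 in limma. The exact permutation test, over all F2 arrays and without diet as a term, gave p = 0.00866. However, the difference did not pass over all probes (FDR 0.399, where 0.0254% were called and 7.78% had an unadjusted p under 0.05). It was 0.80 with the slide as a block (FDR 0.278) and 0.47 without the 2 arrays that stood apart (FDR 0.514). With no normalization it was 0.37 (SE 0.35, unadjusted p = 0.309 in limma), where the median of all probes was -0.21, which leaves 0.57 relative to it. The second probe gave -0.18 (FDR 0.880) and Kiss1r 0.07 (FDR 0.867). The level of 12 choroid plexus markers moved with the code much more widely, at 9.18 to 12.71 on lh arrays and 7.49 to 11.98 on rh arrays, with medians of 12.13 and 7.55, and its part in the Kiss1 difference was not tested.

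Across arrays, after removal of the group means, the Kiss1 probes did not move together. Their deviations had a Pearson r of -0.26 (permutation p = 0.256) and a Spearman rho of -0.29 (p = 0.208) over 24 arrays. The r was -0.13 in F1 and -0.31 in F2, and -0.10 without MD F2 replicate 1 and CD F2 replicate 6. The first probe and Kiss1r had an r of 0.41 (permutation p = 0.0370, adjusted p = 0.344 over 13 relations) but a rho of 0.20 (p = 0.344). That relation rested on few arrays, with r at 0.31 without MD F1 replicate 5 and MD F2 replicate 3 and a rho of -0.01 within F2. The second probe and Kiss1r had an r of -0.19 (permutation p = 0.301).

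**Figure D3:**
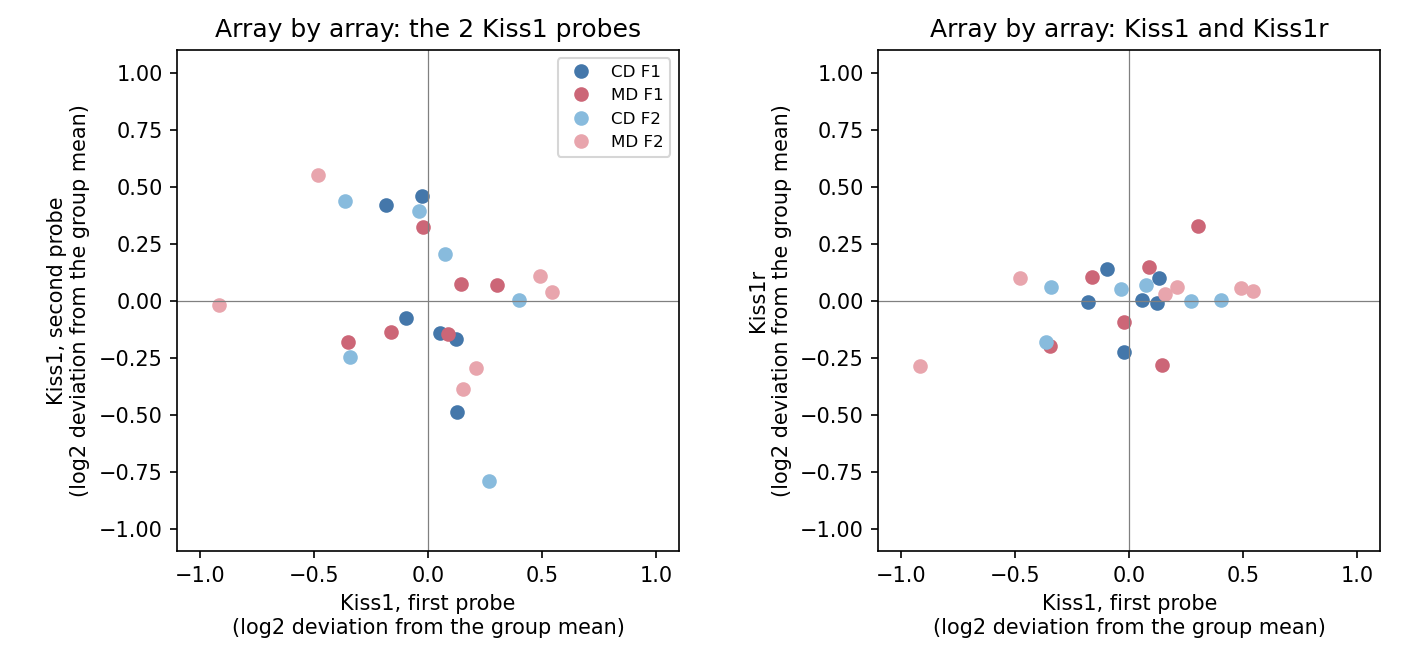
Deviation of each array from its group mean (log2), with the first Kiss1 probe on the x axis and the second Kiss1 probe (left) or Kiss1r (right) on the y axis. Colors are the 4 groups of 6 arrays; r is -0.26 in the left panel and 0.41 in the right one, and in the F2 groups the Kiss1r deviations spread less than those of Kiss1.

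Of the marker lists set against Kiss1, the 8 genes of dentate granule cells came closest, with an r of 0.43 for the first probe (permutation p = 0.0530, adjusted p = 0.344) and a rho of 0.40 (p = 0.0712). The r was -0.02 in F1 and 0.58 in F2, and 0.36 without MD F1 replicate 5 and CD F2 replicate 5. For the second probe the r was -0.11, negative where that of the first was positive. Motile cilia, choroid plexus, thalamus and striatum lists gave r between -0.19 and 0.25 for both probes. None of the 13 relations passed after adjustment.

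Among 17943 named probes that were well above background on all arrays, those most like the first Kiss1 probe after removal of the group means were both probes of Rgs9 (r = 0.91 and 0.89), Adat2 (0.89), Klf7 (0.87) and Srp14 (0.86), each over 24 arrays. Their diet differences in F1 were small, at 0.11 and 0.12 for Rgs9 and -0.04, -0.01 and 0.14 for Adat2, Klf7 and Srp14. Rgs9 is also among the striatum markers, whose list level had an r of only 0.05 with the first Kiss1 probe. The second Kiss1 probe had other leaders, Mettl17 (0.74), Stox2 (0.69), Smarcal1 (0.67), Parp16 (0.64) and Slc7a8 (0.64). Among the probes most like Kiss1r were those of Dph3 (0.83), Ppp2r1b (0.81), Cpeb3 (0.79) and Rbfox3 (0.79). These are the top of a search over many probes and are given as a description.

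Other genes of the kisspeptin system were taken from a list of 48, ordered by role, of which all but the receptor gene Npffr1 had a probe. In neither generation was one of these 47 genes called. In F1, 8 of them (17.0%) had an unadjusted p under 0.05 in limma, 2 higher and 6 lower in MD F1, where 14.4% of all probes did (6.96% higher and 7.48% lower), and their median difference was 0.0042 beside 0.0065 over all probes. In F2 it was 3 (6.38%), 1 higher and 2 lower in MD F2, where 5.6% of all probes did (3.22% higher and 2.38% lower), with medians of -0.011 and 0.015. The share of these genes was thus near that of all probes in both generations.

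Of the RF-amide peptides related to kisspeptin, Npvf, the precursor of the peptides that restrain gonadotropin release, had the largest F1 difference of the detected members. It ran from 5.90 to 6.53 in CD F1 and from 6.42 to 6.98 in MD F1. The difference was 0.46 (SE 0.12; FDR 0.202 in limma), and in F2 it was 0.05 (FDR 0.997). Like Kiss1, Npvf is known from hypothalamic neurons, whose markers averaged 6.38 in CD F1 and 6.63 in MD F1. Otp and Trh had the largest shifts of that list, and Pmch and Hcrt were lower in MD F1. The part of these markers in the Npvf value was not tested. In F2 the largest was Npff, the neuropeptide FF precursor, at 0.11 (FDR 0.922). Of the receptors for these peptides, only Qrfpr was well above background on all arrays of a group, with -0.09 in F1 (FDR 0.859) and -0.77 in F2 (SE 0.41, FDR 0.912).

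Neurokinin B and dynorphin are made by the kisspeptin neurons of the arcuate nucleus and set their rhythm. Tac2, the neurokinin B gene, was well above background throughout, with 0.06 in F1 and 0.24 in F2 (FDR 0.812 and 0.916). Oprk1, the dynorphin receptor, had the largest F1 difference among the detected genes of this role, -0.21 (SE 0.37, FDR 0.809). Its CD F1 arrays spread widely, from 6.23 to 8.71 (SD 0.97), and its MD F1 arrays ran from 6.20 to 6.79 (SD 0.23). Pdyn, the dynorphin precursor, was well above background on 5 CD F1 arrays and no MD F1 array, and no fold is given for it. It was picked after its values were seen, and its signal lay near the limit of detection. The log2 ranges overlapped, at 3.31 to 3.96 in CD F1 and 2.84 to 3.74 in MD F1 (limma FDR 0.257). In F2 the counts were 5 CD arrays and 4 MD arrays. A loss of Pdyn RNA in MD F1 therefore cannot be read from the F1 count. Gnrh1 and Gnrhr, the hormone that kisspeptin releases and its receptor, did not clear the background on a single F1 array.

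Sex steroids act back on kisspeptin neurons through their receptors. The 6 genes of this role all had detectable signal in F1, and none of them was called. In F2 the largest difference was that of Pgr, the progesterone receptor gene, at 0.19 (SE 0.08, FDR 0.890). The family of galanin, a neuropeptide that is also made in the hypothalamus, was led in F1 by Galr3 (0.23, FDR 0.593), and in F2 only Gal was well above background on all arrays of a group (0.09, FDR 0.936). Galr1 had a larger F2 value, -0.86 (SE 0.36, FDR 0.890), but was well above background on 3 CD F2 arrays and 1 MD F2 array. None of these passed the test.

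The 7 genes for making and cutting the peptide were detected in both generations. Pam, the enzyme that amidates peptides such as kisspeptin, had a difference of -0.58 in F1 (SE 0.25, FDR 0.323) and -0.01 in F2. Mmp14, a membrane protease, had the smallest FDR of the list in F1 (-0.35, SE 0.08, FDR 0.185) and was picked out after its values were seen. Its groups did not overlap in F1, where the same held for 1.79% of all probes. Mmp2, a gelatinase that cleaves kisspeptin, had a difference of -0.75 in F2 (SE 0.27, FDR 0.890) and 0.15 in F1. The choroid plexus markers stood at 7.51 to 12.71 in CD F2 and 7.49 to 11.90 in MD F2, with means of 10.80 and 8.81, and their part in the Mmp2 value was not tested.

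Downstream of the receptor, all 17 signalling genes were detected in F1. In F1, groups without overlap were found for 2 of the 47 listed genes and for 1.79% of all probes. Plcb3, a phospholipase C that Gq proteins activate, was 1 of them, with all MD F1 arrays above all CD F1 arrays. It had the largest difference of this role, 0.37 (SE 0.10, FDR 0.214). It was -0.02 in F2, where Plcb1 led with -0.17 (SE 0.14, FDR 0.916). Among the calcium channels of this route, Trpc1 had a difference of -0.36 in F1 (FDR 0.263). The members of 1 route thus lay on both sides of 0, 9 above and 8 below in F1.

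**Figure D4:**
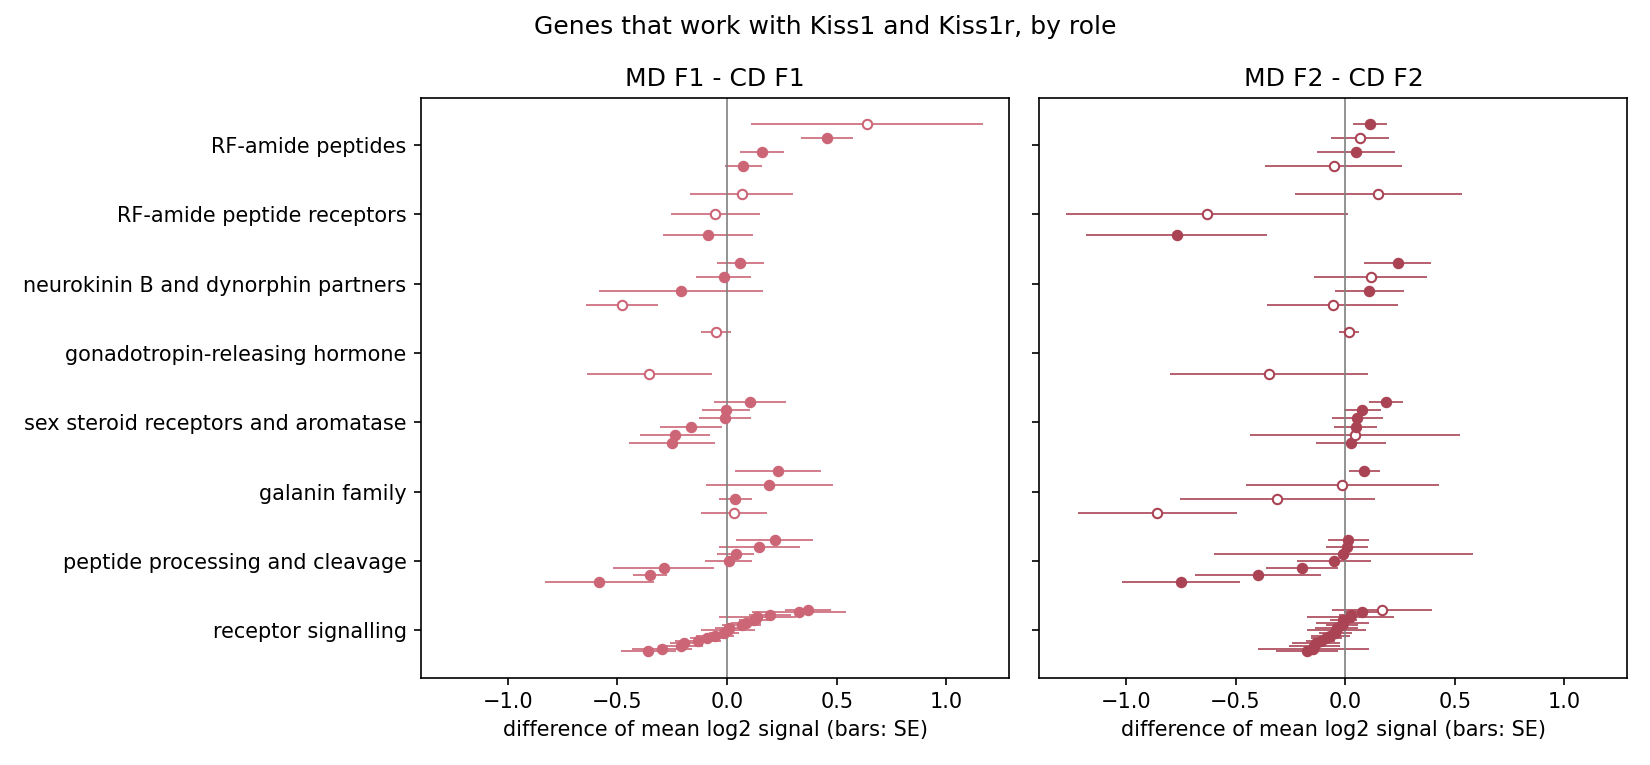
Difference of mean log2 signal (x axis, SE bars) between MD and CD in F1 (left) and F2 (right) for 47 genes of the kisspeptin system, grouped by role (y axis), 1 point a gene. Open points are genes not well above background on all arrays of either group; points lie on both sides of 0 in both generations, and none passed an FDR under 0.1.

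The genes beside Kiss1 had F1 differences on both sides of 0. Of the 5 genes with a probe on each side of it, in the order that RefSeq gives, 4 had a positive and 6 a negative value in F1, from -0.77 for Mdm4 to 0.23 for Golt1a, with a median of -0.06, and none was called (smallest FDR 0.264). Golt1a overlaps Kiss1 in RefSeq and was the highest of them, 0.23 in F1 (SE 0.14, FDR 0.474), while in F2 it was -0.57 (SE 0.43, FDR 0.929). Ren1, the renin gene on the other side, had -0.44 in F1 (SE 0.18, FDR 0.310). Around Kiss1r, the 9 detected genes ran from -0.46 for Elane to 0.23 for Grin3b in F1, with a median of 0.05, and the 7 detected in F2 from -0.08 for Cnn2 to 0.16 for Elane, with none called in either.

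**Figure D5:**
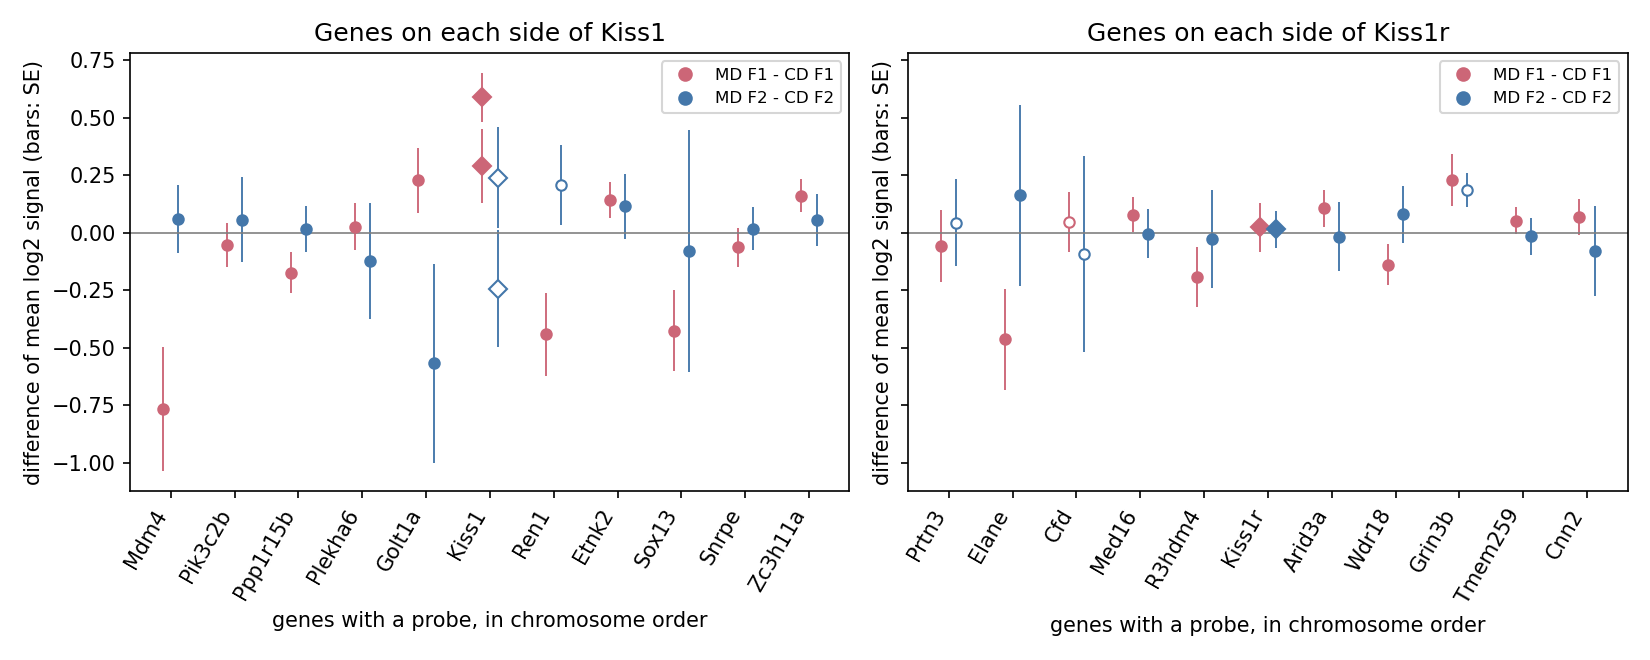
Difference of mean log2 signal (y axis, SE bars) between MD and CD in F1 and F2 for the 5 genes with a probe on each side of Kiss1 (left) and Kiss1r (right), in chromosome order (x axis, not to scale). Diamonds are the probes of Kiss1 and Kiss1r, open symbols are not well above background on all arrays of either group; the genes flanking Kiss1 lie on both sides of 0.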

How the data were processed

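Cy3-labelled cRNA was hybridised to single-color 4x44K mouse arrays. The authors deposited one file of Agilent Feature Extraction output per array, with intensity values per spot; the processed intensity used here is background-subtracted, linear and not scaled between arrays. The deposited headers name version 10.7.3.1 and build mm9, and the methods another software version. A deposited table of the authors' quantile-normalized intensity values was an alternative.

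Spots marked non-uniform or population outliers (1939 in F1, 2097 in F2) were left out. Intensities were log2-transformed, quantile-normalized within each generation and averaged per probe; levels across generations came from all 24 arrays normalized together. No filter was set on dim probes. Probes with values on fewer than 2 arrays of a group were not tested. limma 3.58.1 (R 4.3.3) was fitted over all probes with the group means as terms (plus diet for rh against lh), at a Benjamini-Hochberg FDR under 0.1. Single probes were compared by two-sided exact permutation over 924 splits, whose smallest p is 0.00216, with no diet term for rh against lh. Relations across arrays were tested by 100000 permutations within groups. Probes were named through their RefSeq identifiers (26055 probes, 19751 symbols); no gene coordinates were taken from the arrays. Related genes were represented by their brightest probe.

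Members, lists and rules were chosen with earlier results of these data known. Genes were named by rule: the members, the detected gene with the largest change per role, the 5 nearest genes on each side, the 5 most similar probes and the markers. Genes named outside it were picked after their values were seen (Mmp14, Tac2, Pdyn, Gnrh1, Gnrhr, Galr1 and Trpc1). Some genes that the rule covers are not reported here. Whether pools share mice is not given in the sources used here, so p-values measure the spread between these arrays only. Depth is the median intensity (148.2 to 317.8) and the number of spots above background; the number of arrays limits the precision. Replicate numbers did not pair the samples, with correlations of same-numbered deviations from -0.17 to 0.20. In simulated data with 200 probes changed by 1 (log2), the fit recovered 79.5% in F1, 65.0% in F2 and 66.0% for rh against lh. Of its calls, 10.7%, 8.45% and 8.97% were false. The noise was drawn independently for each probe, and the change was larger than the diet differences of Kiss1. Without a change, 2022 F1 probes had an unadjusted limma p under 0.05, against 5694 in the measured data. These shares therefore do not describe the recovery of a dim probe such as those of Kiss1. Alternatives covered scaling, background correction, dim and marked spots, slide, replicate number, sex, label code, all arrays together and leaving out arrays.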

Additional observations from a re-analysis of the deposited data

Results flagged for a closer look

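Of 12 sets of 6 arrays (3 probes in 4 groups), 2 held an array far from the rest, where chance gives about 1 in 20. Both were Kiss1r in F2. CD F2 replicate 2 read 8.223 against 8.403 to 8.473 on the other 5 arrays of its group. MD F2 replicate 3 read 8.132 against 8.449 to 8.516, and it was also the array with the fewest spots above background and the lowest value of the first Kiss1 probe.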

How the results depend on the processing

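Both Kiss1 probes kept their sign in F2 and for rh against lh under every alternative that gave a value. No member passed an FDR under 0.1 under any of them. Some F2 values were too small to give a direction. The first probe was at -0.0040 (SE 0.21) without the 2 arrays that stood apart, and the second at 0.027 (SE 0.052) with normexp. In F1 the first Kiss1 probe was at 0.20 with no normalization and 0.32 with normexp on median signals, the second at -0.0860 and Kiss1r at -0.28 with no normalization, where the median of all probes fell by 0.28. Kiss1r in F2 turned negative with scaling to the 75th percentile (-0.0346) and with no normalization (-0.0776), and for rh against lh with no normalization (-0.19). Its highest minus lowest group mean was 1.13 with no normalization. The r of the second Kiss1 probe with dentate granule cells turned to 0.0235 with scaling to the 75th percentile.

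Leaving out 1 array at a time, the F1 difference was 0.53 to 0.66 and 0.19 to 0.38 for the Kiss1 probes and -0.04 to 0.08 for Kiss1r, and the F2 difference -0.35 to -0.06, 0.08 to 0.33 and -0.0217 to 0.0717. The calls over all probes, 13 in F1, became 4 with scaling to the 75th percentile, 7952 with no normalization, 5 with normexp, 44 with only probes above background, 73 with all 24 arrays, 0 with the slide or sex as a term, and 0 to 152 without 1 array. In F2 the 0 calls (2209 at an unadjusted p under 0.05) became 18 with all 24 arrays and 0 to 1 without 1 array. The 10 calls for rh against lh became 3 with scaling to the 75th percentile, 3 with no normalization, 0 with the slide as a block and 0 without the 2 arrays that stood apart. Related genes called in F1 were 8 with no normalization and 0 otherwise; the causes were not tested.

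With the replicate block, 0 probes were called in F1 and in F2, and the members' differences did not move. The first-probe difference in F2 was -0.24 with the block (FDR 0.968); the numbers pair no samples, since F2 correlations ran from -0.17 to 0.19.

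Normexp on mean signals was not run, as no such column is among those used here, and median signals were used instead, a choice made after seeing the data, as was leaving out 2 arrays for rh against lh. With only probes above background on all arrays of a group, the Kiss1 probes had no F2 value. Signal near background limits what the arrays can show of Kiss1.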
